A study of Mus musculus with 48 samples.

Results

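The genes described here make and load classical MHC class I, the cell surface complex that shows peptides from inside the cell to CD8+ T cells. They were chosen by name: the heavy chain genes H2-K1 and H2-D1, the light chain gene B2m, the peptide transporter genes Tap1 and Tap2, the peptide editors Tapbp and Tapbpl, the transactivator Nlrc5 and the trimming enzyme gene Erap1. Of these 9 genes, 8 have a row among the 39637 genes in the count table, and Erap1 is not analysed here. RNA was counted in 48 whole tumours grown under the skin of female BALB/c mice, 8 to 9 weeks old. The tumours were AB1, a mesothelioma cell line, cut out on day 8, and Renca, a kidney cancer cell line, cut out on day 10. All were taken before the mice received anti-CTLA4 plus anti-PD-L1, antibodies that release T cell checkpoints, and they carry no effect of that treatment. Later outcome split each tumour type into 12 responders and 12 non-responders. Each tumour type is 1 cell line, and each library holds tumour cells together with the host cells that had entered the tumour.

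In the class I pathway, proteasomes cut proteins in the cytosol, the Tap1 and Tap2 proteins pump the peptides into the endoplasmic reticulum, and tapasin (Tapbp) holds an empty heavy chain and beta-2 microglobulin (B2m) beside the pump until a peptide fits. TAPBPR (Tapbpl) edits peptides away from the pump. Nlrc5 switches on heavy chain, B2m and Tap1 promoters, and interferon gamma raises most genes of the pathway. Nearly all nucleated cells make class I, and leukocytes make much of it. In RNA from bulk tissue, a change in the number of cells that make a transcript and a change in RNA per cell cannot be told apart.

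Each library held between 16.4 and 27.8 M counts (M for mega, as in the megacount). Group medians were 23.4 M in AB1 non-responders, 23.7 M in AB1 responders, 20.7 M in Renca non-responders and 21.2 M in Renca responders. Levels are given in CPM, a gene's counts per megacount of its library after TMM scaling over the 48 libraries. The kidney epithelial markers Pax2, Pax8, Cdh16 and Lrp2 each had a median under 1 CPM in both AB1 groups and above it in both Renca groups. The mesothelial markers were close to absent from AB1: Wt1, Upk3b and Lrrn4 together reached at most 7.96 CPM, and the median of Upk3b and of Lrrn4 was under 1 CPM. In AB1, 3 libraries stood apart. Responder 12 had the highest collagen and fibroblast sum of its group (27230 CPM against a median of 11280 CPM). It was also the lowest responder in all 8 genes. Non-responder 3 had the highest skin (703.3 CPM) and skeletal muscle (2540 CPM) marker sums. Non-responder 7 had the highest leukocyte sum of its group, by little (1373 CPM against a median of 1179 CPM). It was also the highest non-responder in all 8 genes, so setting it apart was not independent of the genes tested. The AB1 response calls, the spread in AB1 and the difference of effects are given with and without the 3 libraries. The ratios, the correlations over 48 libraries and the comparison of AB1 with Renca are given with them alone.

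On chromosome 17, the mouse MHC holds 5 of the 8 genes. In GENCODE M21 coordinates on GRCm38, Tapbp (ENSMUSG00000024308) spans 33915899 to 33929292 on the plus strand, H2-K1 (ENSMUSG00000061232) 33996017 to 34000347 on the minus strand, Tap1 (ENSMUSG00000037321) 34187553 to 34197225, Tap2 (ENSMUSG00000024339) 34203527 to 34216321 and H2-D1 (ENSMUSG00000073411) 35262730 to 35267499, the last 3 on the plus strand. B2m (ENSMUSG00000060802) is on chromosome 2 at 122147686 to 122153083, Tapbpl (ENSMUSG00000038213) on chromosome 6 at 125223933 to 125231860 and Nlrc5 (ENSMUSG00000074151) on chromosome 8 at 94434356 to 94527272. The annotation that the authors counted with is not given in the sources used here.

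Promoters are shown because class I promoters share a short set of elements. Whether these elements bear on how the 8 genes varied was not tested. RefSeq promoter sequences on GRCm38.p6 were found for 5 of the 8 genes (H2-K1, H2-D1, B2m, Tap1 and Tapbp). They come from the C57BL/6J reference, which has another MHC haplotype than BALB/c, so the tumours' own heavy chain promoters may differ in letters. Capitals mark matches, on either strand, to GGGNNNNNCCC (the outline of a kappa B site), AANNGAAA (an interferon regulatory factor motif), TGACG (the core of a cyclic AMP response element) and CCAAT (the box bound by NF-Y, which reads ATTGG when it lies on the other strand). The 250 bases before the H2-K1 start lie at chr17:34000348-34000597 (minus strand), and those before the B2m start at chr2:122147437-122147686 (plus strand).
H2-K1 promoter: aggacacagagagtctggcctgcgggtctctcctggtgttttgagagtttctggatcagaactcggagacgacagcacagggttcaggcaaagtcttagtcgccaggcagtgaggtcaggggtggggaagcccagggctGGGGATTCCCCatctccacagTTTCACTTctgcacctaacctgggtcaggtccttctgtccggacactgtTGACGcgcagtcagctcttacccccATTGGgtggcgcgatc
B2m promoter: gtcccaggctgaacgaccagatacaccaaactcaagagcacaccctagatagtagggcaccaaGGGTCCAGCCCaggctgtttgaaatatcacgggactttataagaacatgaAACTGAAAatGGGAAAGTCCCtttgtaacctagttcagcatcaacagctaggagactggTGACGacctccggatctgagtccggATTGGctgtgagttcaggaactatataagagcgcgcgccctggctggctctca

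The upstream pair of elements was almost the same in both heavy chain genes. It ran from 111 to 83 bases before the H2-K1 start (chr17:34000430-34000458) and from 171 to 143 bases before the H2-D1 start (chr17:35262923-35262951), a RefSeq start that lies 364 bases inside the GENCODE gene. In B2m the pair stood in the other order, from 137 to 117 bases before the start (chr2:122147550-122147570).
H2-K1 upstream pair: GGGGATTCCCCatctccacagTTTCACTT
H2-D1 upstream pair: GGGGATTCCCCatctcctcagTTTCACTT
B2m upstream pair: AACTGAAAatGGGAAAGTCCC

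Nearer the start, TGACG was followed after exactly 20 bases by a reversed CCAAT box in all 3 of these genes, at 41 to 12 bases before the H2-K1 start (chr17:34000359-34000388), 101 to 72 before the H2-D1 start (chr17:35262993-35263022) and 78 to 49 before the B2m start (chr2:122147609-122147638). The letters between the elements differed. Tap1 held TGACG beside a GGGNNNNNCCC match, 86 to 66 bases before its start (chr17:34187470-34187490). It had no AANNGAAA match, and its 250 promoter bases lie in annotated Psmb9 exon. Tapbp had CCAAT matches alone and none of the other patterns, before a RefSeq start 3579 bases inside the GENCODE gene. The set of elements was therefore not shared by all of these promoters.
H2-K1 downstream pair: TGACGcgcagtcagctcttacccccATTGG
H2-D1 downstream pair: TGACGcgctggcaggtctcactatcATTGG
B2m downstream pair: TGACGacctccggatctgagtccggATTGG
Tap1 pair: TGACGacagaGGGTCCTGCCC

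Single motifs of this kind are common. Of 32851 RefSeq promoters of 250 bases, 12.2% held GGGNNNNNCCC, 21.3% AANNGAAA, 17.8% TGACG and 33.8% CCAAT on either strand. The exact site GGGGATTCCCC, which is 1 form of GGGNNNNNCCC, occurred in 10 promoters (0.0304%), among them H2-K1, H2-D1 and the class I gene H2-Q6. TGACG and ATTGG 20 bases apart occurred in 30 promoters (0.0913%), among them H2-K1, H2-D1, B2m and the class I-like gene H2-M3. Aligned on the upstream site without gaps, the H2-K1 and H2-D1 promoters had 166 of 190 bases in common (87.4%). The patterns were picked after reading these promoters, so the shares describe the letters and no binding was measured.

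All 8 genes were higher in AB1 tumours of mice that later responded. The rises were of similar size, from 0.98 on the log2 scale for B2m (1.98-fold) to 1.22 for Tap1 (2.33-fold), with a median of 1.07 against -0.02 over all genes tested. In the edgeR quasi-likelihood test with Benjamini-Hochberg adjustment, 8 of 8 passed at 0.05 in the higher direction, in a comparison where 59.7% of 15388 genes passed, 29.6% higher and 30.1% lower. In each of the 8 genes, 12 of 12 responders lay above the non-responder median. The share of all genes for which this held was not counted. None of the 8 separated the groups fully, and 2.76% of all genes tested did so in AB1, 1.98% with responders higher and 0.786% with responders lower.

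H2-K1, a heavy chain that presents peptide, had a lowest, median and highest level of 529.3, 1032 and 1647 CPM in AB1 non-responders and of 1343, 2133 and 2288 CPM in responders. In all, 10 of 12 responders exceeded every non-responder, and responders 1 and 12 fell inside the non-responder range. H2-K1 rose by 1.03 ± 0.16 on the log2 scale (standard error; edgeR adjusted p = 7.57e-06). H2-D1, the other heavy chain gene, ran from 881.8 through a median of 1694 to 2760 CPM in non-responders and from 2283 through 3660 to 4070 CPM in responders. Only responder 12 lay within the non-responder range. H2-D1 rose by 1.10 ± 0.16 (edgeR adjusted p = 4.12e-06).

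B2m, the light chain shared by all class I molecules, was the most abundant of the 8 per length of exon. Its lowest, median and highest levels were 1476, 2426 and 4018 CPM in non-responders and 2663, 4842 and 5158 CPM in responders. Leaving aside responder 12, the 11 other responders lay in a narrow band from 4630 to 5158 CPM, above all 12 non-responders. B2m rose by 0.98 ± 0.15 (edgeR adjusted p = 7.34e-06). H2-K1, H2-D1 and B2m together took a median of 0.506% of all counts in AB1 non-responders and 1.03% in responders.

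Tap1, a subunit of the peptide pump, had levels of 179.6, 359.0 and 829.7 CPM (lowest, median, highest) in non-responders and 455.6, 931.7 and 989.4 CPM in responders. Non-responder 7, at 829.7 CPM, lay above responders 1, 2 and 12. Tap1 rose by 1.22 ± 0.22 (edgeR adjusted p = 4.45e-05). Tap2, its partner, ran from 108.9 through 220.0 to 474.3 CPM in non-responders and from 257.4 through 461.9 to 524.2 CPM in responders, and it rose by 1.06 ± 0.20 (edgeR adjusted p = 8.91e-05). Non-responder 7 was again far above the next highest non-responder (319.8 CPM), and 7 of 12 responders lay within the non-responder range.

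Tapbp, which encodes tapasin, had levels of 320.3, 501.2 and 1121 CPM (lowest, median, highest) in non-responders and 612.7, 1095 and 1269 CPM in responders. Its rise was 1.04 ± 0.18 (edgeR adjusted p = 3.79e-05), and 7 of 12 responders lay within the non-responder range. Tapbpl, the second editor, had levels of 35.65, 61.60 and 140.0 CPM in non-responders and 81.90, 155.6 and 174.5 CPM in responders. For this gene 10 of 12 responders exceeded every non-responder, and Tapbpl rose by 1.16 ± 0.20 (edgeR adjusted p = 3.17e-05). Nlrc5 ran from 119.9 through 222.3 to 484.1 CPM in non-responders and from 279.7 through 524.3 to 552.1 CPM in responders. For Nlrc5 9 of 12 responders lay above every non-responder, and it rose by 1.09 ± 0.21 (edgeR adjusted p = 0.000108).

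**Figure D1:**
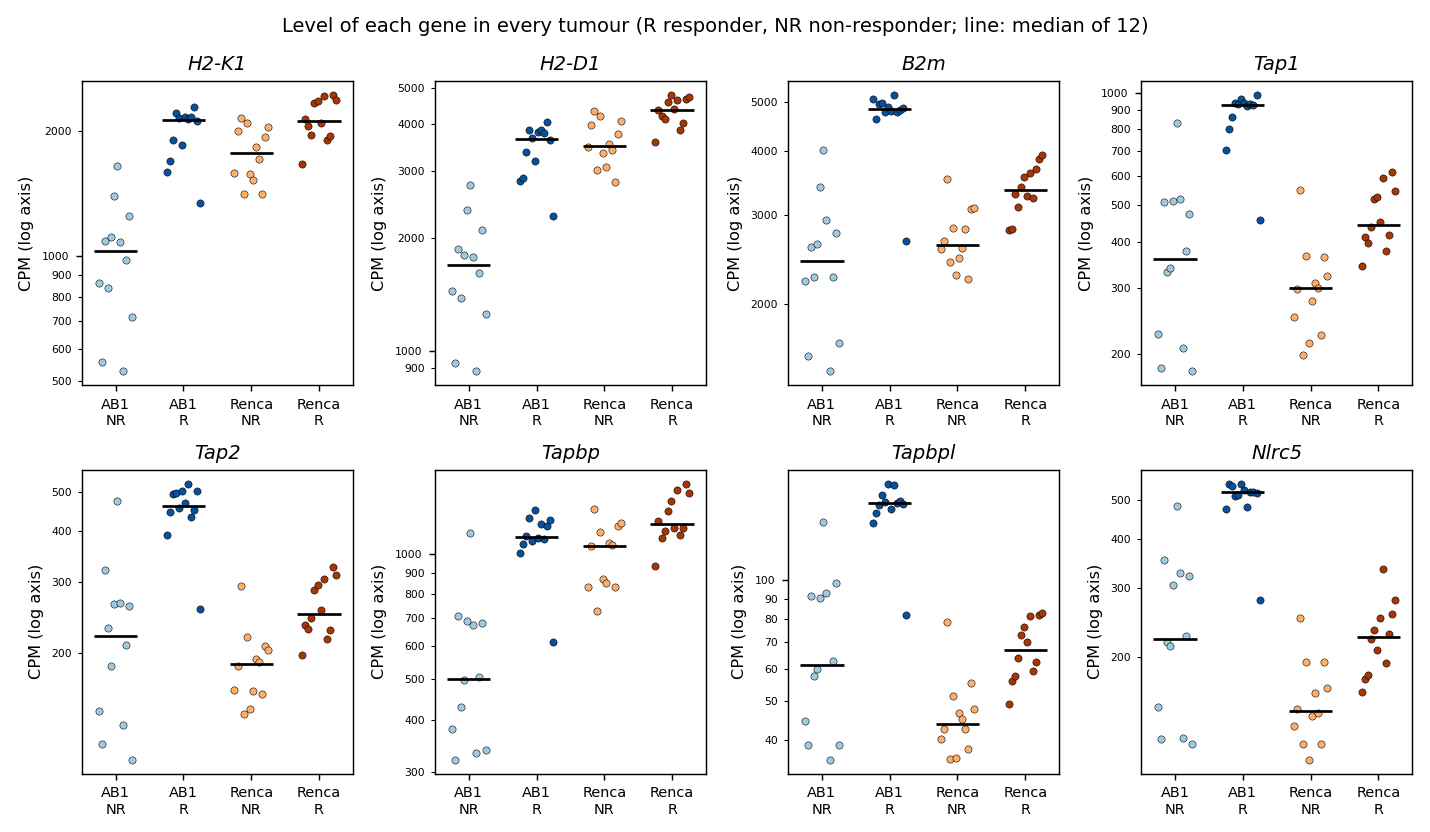
Level of each of the 8 genes in every tumour, in CPM on a logarithmic axis, with 1 point per tumour and a line at the median of 12. AB1 responders form a tight group above most AB1 non-responders except for responder 12, which is the lowest AB1 responder in all 8 panels (2663 CPM for B2m), while the Renca groups overlap in every panel.

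Levels were spread more widely among AB1 non-responders than among responders, a difference that was not tested. The SD of log2 CPM in AB1 ran from 0.44 (B2m) to 0.70 (Tap1) among non-responders and from 0.23 (H2-K1) to 0.31 (Tap1) among responders. The highest non-responder held 4.62 times the Tap1 CPM of the lowest, and the highest responder 2.17 times that of the lowest, while without AB1 responder 12 and non-responders 3 and 7 these ratios were 2.90 and 1.41. Without those 3 libraries the SD of log2 CPM ran from 0.40 (B2m) to 0.61 (Tap1) among non-responders and from 0.04 (B2m) to 0.18 (H2-D1) among responders. AB1 responder 12 was the lowest responder and AB1 non-responder 7 the highest non-responder in all 8 genes. Without these libraries and non-responder 3, edgeR called 8 of 8 genes and 10046 of all genes, with a median rise of 1.34 over the 8. B2m then rose by 1.15 ± 0.13 and Tap1 by 1.53 ± 0.18. Leaving out the lowest responder and the highest non-responder widens a difference in itself, so the larger rises were not independent of the values tested.

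Leukocyte markers moved with these genes in AB1. The 13 markers in the table summed to between 846.3 and 1373 CPM in non-responders and between 1455 and 3312 CPM in responders, and 11 of 13 passed as higher, with a median of 1.29 on the log2 scale. Ptprc, the pan-leukocyte CD45 gene, had a median of 312.9 CPM in non-responders and 927.4 CPM in responders. Cd8a, which marks the T cells that read class I, had medians of 7.39 and 40.2 CPM. Ms4a1, a B cell gene, had a median under 1 CPM in all groups. Of all genes tested in AB1, 29.6% passed as higher and 30.1% as lower. Among fibroblast genes 4 of 5 passed as lower, with a median of -0.80 over the 5. The part of these shifts in the class I result was not tested.

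In Renca, the same 8 genes were also higher in later responders, by smaller amounts. Rises ran from 0.28 on the log2 scale for H2-D1 and H2-K1 to 0.62 for Tap1, with a median of 0.40 against -0.01 over all genes tested. By the edgeR quasi-likelihood test, 8 of 8 passed, where 19.6% of 15409 genes passed, 11.6% higher and 8.01% lower. The transporter, Tapbpl and Nlrc5 stood at 0.48 to 0.62, and the heavy chains, B2m and Tapbp at 0.28 to 0.32. The ranges of responders and non-responders overlapped for every gene, as for nearly all genes in Renca, where 0.00649% of genes (1 gene, lower in responders) separated the groups and 0% did so with responders higher.

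The heavy chain H2-K1 had levels of 1414, 1778 and 2161 CPM (lowest, median, highest) in Renca non-responders and 1666, 2119 and 2451 CPM in responders, and rose by 0.28 ± 0.08 (edgeR adjusted p = 0.0149). H2-D1 ran from 2818 through 3513 to 4339 CPM and from 3587 through 4378 to 4796 CPM, a rise of 0.28 ± 0.07 (edgeR adjusted p = 0.00654). Every non-responder was exceeded by 7 of 12 responders for H2-D1 and by 5 of 12 for H2-K1. The light chain B2m had levels of 2237, 2618 and 3523 CPM in non-responders and 2791, 3348 and 3936 CPM in responders, and rose by 0.32 ± 0.07 (edgeR adjusted p = 0.00415). The median share of counts taken by H2-K1, H2-D1 and B2m was 0.813% in non-responders and 0.979% in responders.

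Tap1 levels in Renca were 198.9, 299.4 and 548.2 CPM (lowest, median, highest) in non-responders and 344.6, 444.3 and 614.2 CPM in responders, a rise of 0.62 ± 0.14 (edgeR adjusted p = 0.00451). Only 2 responders exceeded non-responder 3, the highest non-responder, although 12 of 12 lay above the non-responder median. Tap2 rose by 0.48 ± 0.11 (edgeR adjusted p = 0.00471), from a median of 187.9 to 249.6 CPM. Tapbpl rose by 0.55 ± 0.11 (edgeR adjusted p = 0.00352), from 43.78 to 67.17 CPM. Nlrc5 rose by 0.53 ± 0.12 (edgeR adjusted p = 0.00587), from a median of 145.9 CPM (range 109.5 to 250.7) to 225.5 CPM (range 163.1 to 335.4). Tapbp had the least secure rise, 0.29 ± 0.09 (edgeR adjusted p = 0.0192), from a median of 1045 to 1175 CPM, and 11 of 12 responders exceeded the median of non-responders.

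Renca calls depended on the fit. With the RNA purity ratios from the labels as covariates, 0 of the 8 genes passed in edgeR (adjusted p from 0.0600 for Tapbpl to 0.237 for Tapbp; 7 of 8 had an unadjusted p under 0.05, and 224 genes passed in all). No other tool was run with these covariates. The RNA purity ratio that is sensitive to phenol and salt had a median of 2.01 in Renca responders and 2.16 in non-responders. Rises in the first flow cell alone, with 6 tumours in each group, ran from 0.20 (H2-D1) to 0.49 (Tap1), and 0 genes of the whole table passed in edgeR (2803 at an unadjusted p under 0.05, 4 of the 8 among them). In the second flow cell, also 6 against 6, they ran from 0.33 (Tapbp) to 0.75 (Tap1), and 7 of 8 passed, with Tapbp at an adjusted p of 0.0647. Every one of these values was above 0.

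Leukocyte markers were higher in Renca responders as well, with sums of 1331 to 1969 CPM against 1056 to 1538 CPM in non-responders and 9 of 13 passing as higher (median 0.48). Ptprc had medians of 277.1 and 374.1 CPM and rose by 0.42. Of T cell genes, Cd8a rose by 1.18 (medians of 18.9 and 43.3 CPM in non-responders and responders), Cd3g by 0.91 and Cd3e by 0.84. Of all genes tested in Renca, 11.6% passed as higher and 8.01% as lower. Of 5 fibroblast genes, 0 passed in edgeR, and the smallest adjusted p was 0.0619 (Pdgfrb). The kidney epithelial markers Cdh16 (-0.37), Pax2 (-0.24) and Pax8 (-0.20) passed as lower in responders, and Lrp2 was at -0.20 with an edgeR adjusted p of 0.174. The part of these shifts in the class I result was not tested.

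The response effect was larger in AB1 than in Renca for all 8 genes, and 6 of 8 passed the test of that difference. Over the 48 libraries, 45.1% of 16509 genes passed the interaction of tumour and response in edgeR, 18.5% with the higher effect in AB1 and 26.6% with the lower. The median difference of the 8 genes was 0.59 on the log2 scale, against -0.07 over all genes. H2-D1 differed by 0.77 ± 0.17 (edgeR adjusted p = 0.000261), H2-K1 by 0.70 ± 0.17 (0.00093), Tapbp by 0.69 ± 0.20 (0.00386) and B2m by 0.61 ± 0.16 (0.0019). Tapbpl, at 0.56 ± 0.23 (edgeR adjusted p = 0.0388), and Tap2, at 0.54 ± 0.22 (0.0467), passed narrowly. Tap1, at 0.55 ± 0.25 (edgeR adjusted p = 0.0713), and Nlrc5, at 0.51 ± 0.24 (0.0808), did not pass.

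Both of the latter passed without the 3 AB1 libraries that stood apart (0.85 and 0.79). Those libraries include the lowest AB1 responder and the highest AB1 non-responder in all 8 genes. Leaving them out widens the AB1 difference in itself, so these calls were not independent of the values tested. Leaving out Renca non-responder 3, the highest Renca non-responder in all 8 genes, ended the calls of Tap2 (0.46, edgeR adjusted p = 0.086) and Tapbpl (0.46, 0.0778).

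**Figure D2:**
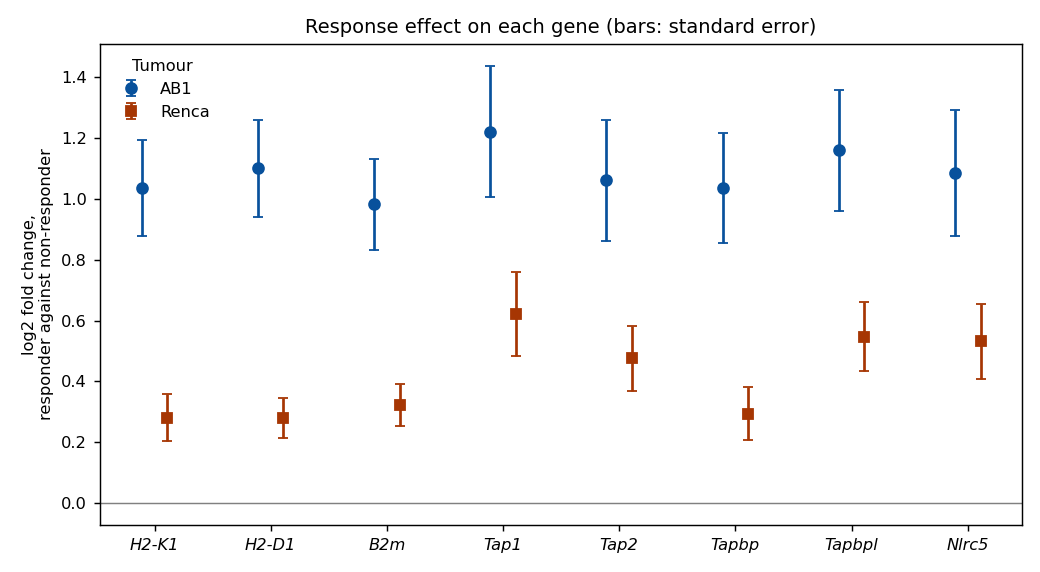
Log2 fold change of each gene, responder against non-responder, in AB1 (circles) and Renca (squares), with bars of 1 standard error. AB1 values lie between 0.98 and 1.22, and Renca values between 0.28 (H2-K1, H2-D1) and 0.62 (Tap1).

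AB1 and Renca differed in 7 of the 8 genes, where 81.3% of 16509 genes passed, 42.1% higher in AB1 and 39.2% lower. These calls are near the shares of all genes and are not particular to the pathway. With response in the model, AB1 was higher in Tap2 (0.53), Tap1 (0.62), Tapbpl (0.88) and Nlrc5 (0.90, all on the log2 scale) and lower in H2-D1 (-0.71), Tapbp (-0.51) and H2-K1 (-0.47), and all 7 passed in edgeR. B2m, at 0.17 ± 0.09, did not (edgeR adjusted p = 0.0743). Tumour, day of removal and flow cell cannot be told apart in this comparison.

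The order of the 4 groups varied by gene. Of all genes tested between tumours, 12041 of 15623 passed among responders alone and 11954 of 15647 among non-responders alone. Most genes thus passed in these fits, and calls of single genes there are not particular to the pathway. For B2m, Tap1, Tap2, Tapbpl and Nlrc5 the AB1 responders had the highest median, and among responders alone AB1 exceeded Renca by 0.47 (B2m) to 1.15 (Tapbpl), each passing in edgeR. Among non-responders alone, B2m (-0.14, edgeR adjusted p = 0.359), Tap2 (0.26, 0.234) and Tap1 (0.35, 0.163) did not pass between tumours, whereas Tapbpl (0.60) and Nlrc5 (0.65) did. H2-D1 was lowest in AB1 non-responders and highest in Renca responders, whose median of 4378 CPM compared with 3660 CPM in AB1 responders (-0.34 ± 0.08, edgeR adjusted p = 0.000535). For H2-K1 and Tapbp the AB1 non-responders were lowest, below Renca non-responders by 0.83 and 0.85. AB1 and Renca responders did not pass as different in either gene (H2-K1 -0.13 ± 0.08, edgeR adjusted p = 0.157; Tapbp -0.17 ± 0.09, 0.0813).

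Per length of annotated exon, the order of the genes by median was the same in the 4 groups. B2m led, with a median of 2822 CPM per kilobase in AB1 non-responders and 5630 in AB1 responders. H2-D1 (657 and 1419 CPM per kilobase) and H2-K1 (351 and 726) followed, then Tapbp (138 and 302), Tap1 (65.6 and 170) and Tap2 (58.2 and 122). Tapbpl (26.2 and 66.2 CPM per kilobase) and Nlrc5 (26.2 and 61.7) were the scarcest, and their levels per kilobase overlapped in each group.

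Members of a pair did not rise by equal amounts. The log2 ratio of the counts of 2 genes in the same library needs no scaling between libraries, and 7 such ratios were compared in 3 ways (21 comparisons, two-sided permutation tests with 100000 resamples, adjusted together). Each ratio is of counts, not per length. Tap2 was lower relative to Tap1 in responders of both tumours, with a difference of -0.17 in AB1 (adjusted permutation p = 0.00567) and of -0.17 in Renca (0.000537), and 0 of 12 responders lay above the non-responder median in either tumour. In Renca the median was 0.626 Tap2 counts per Tap1 count in non-responders and 0.562 in responders. Tapbp was lower relative to Tap1, with a difference of -0.23 in AB1 (adjusted permutation p = 0.00101; 1 of 12 above the median of non-responders) and -0.35 in Renca (0.00024; 0 of 12). Tapbpl gained on Tapbp by 0.15 in AB1 (adjusted permutation p = 0.00131) and 0.26 in Renca (0.00116), and all 12 responders of each tumour exceeded the median of non-responders.

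The heavy chains kept nearly the same ratio, with small SDs. The log2 ratio of H2-D1 to H2-K1 counts was 0.741 ± 0.032 in AB1 non-responders and 0.803 ± 0.030 in AB1 responders (SD, n = 12), a difference of 0.063 (adjusted permutation p = 0.000367; all 12 responders exceeded the median of non-responders). In Renca it was 1.02 ± 0.06 and 1.02 ± 0.05 (adjusted permutation p = 0.936). Between the tumours the ratio did not overlap: AB1 libraries held 1.62 to 1.81 H2-D1 counts per H2-K1 count, and Renca libraries 1.91 to 2.19 (difference -0.25, adjusted permutation p = 3.5e-05, from the smallest p the resamples can give). Nlrc5 gained on B2m in Renca (0.22, adjusted permutation p = 0.0148; 11 of 12 responders exceeded the median of non-responders), and in AB1 the value was 0.18 (0.0945). Neither heavy chain passed against B2m in either tumour, with differences from -0.04 to 0.13. All 7 ratios differed between AB1 and Renca, among them Tapbpl to Tapbp (1.38), Tapbp to Tap1 (-1.12) and H2-D1 to B2m (-0.90). Whether a response effect on a ratio differed between tumours was not tested.

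**Figure D3:**
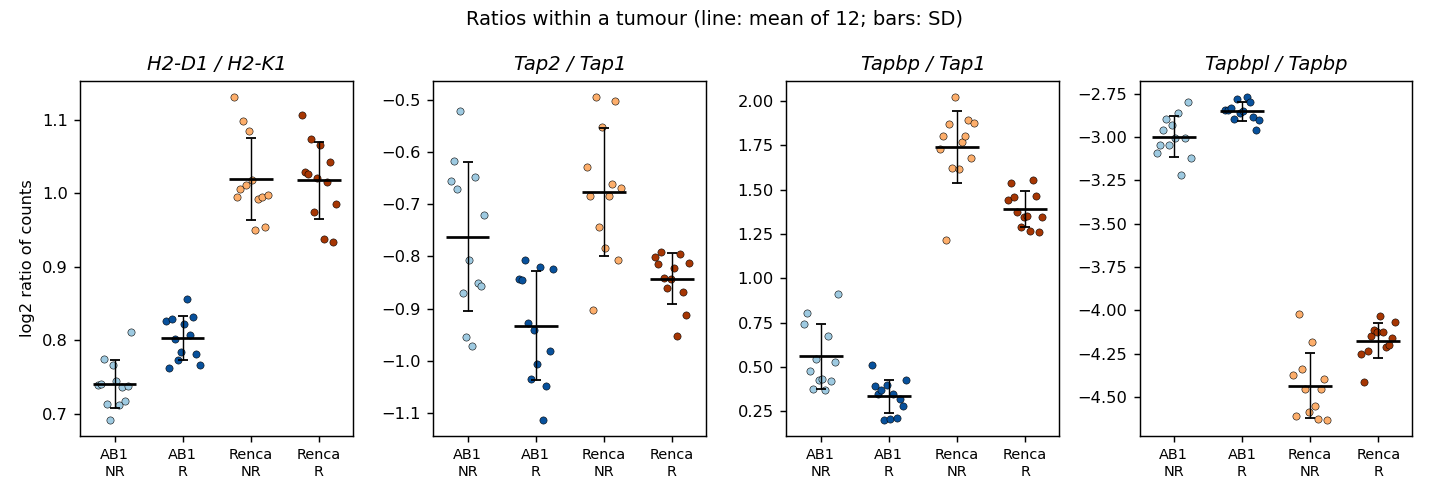
Log2 ratio of the counts of 2 genes in the same tumour, with a line at the mean of 12 and bars of 1 SD. In both tumours the mean of responders (R) is lower than that of non-responders (NR) in Tap2 to Tap1 and Tapbp to Tap1. It is higher in Tapbpl to Tapbp, and the ranges of responders and non-responders overlap in these panels. AB1 and Renca do not overlap in H2-D1 to H2-K1.

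The 8 responder ratios that passed had the same sign in both flow cells. For H2-D1 to H2-K1 in AB1 the differences were 0.066 in the first flow cell and 0.060 in the second, and for Tapbp to Tap1 in Renca they were -0.30 and -0.40. Some transcript sequence of these genes also occurs in other genes, so the authors' counting could have divided reads. Of 50-base windows of the longest annotated transcript, 8.79% for H2-K1 and 14.3% for H2-D1 occur in another gene (0% and 4.64% of 100-base windows), 6.47% for Tap1 (mostly Psmb9, which starts beside Tap1 on the opposite strand), 12.6% for Tap2, 21% for Tapbp, 3.69% for Tapbpl and 0% for B2m and Nlrc5. BALB/c mice also carry H2-L, a heavy chain gene close to H2-D1 in sequence that the C57BL/6J reference lacks, and how its reads were counted is not given in the sources used here. Heavy chain values are uncertain for these reasons.

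Pooled over the 4 groups, the 8 genes went up and down together around their group means. After subtracting each group's mean, the log2 CPM of each gene correlated with the mean of the other 7 at 0.907 (H2-D1) to 0.979 (Tap1) over the 48 libraries. AB1 non-responders had the widest spread and so weigh most in these values, which do not describe each group alone. Nlrc5, the class I transactivator, was compared with the other 7 genes inside each group of 12, and Ptprc with all 8, as 60 relations with p-values adjusted together. The share of all genes that would pass with Nlrc5 was not counted, so the counts of relations passed are not shown to be particular to these genes. In AB1 non-responders, Pearson's r of Nlrc5 ran from 0.903 to 0.993 and Spearman's rho from 0.797 to 0.986 (7 of 7 passed, highest adjusted permutation p 0.000171 and 0.00755). In Renca non-responders r ran from 0.803 to 0.977 and rho from 0.888 to 0.972 (7 of 7, highest adjusted permutation p 0.00333 and 0.00124). In Renca responders r ran from 0.653 to 0.873 and rho from 0.629 to 0.895 (7 of 7, highest adjusted permutation p 0.028 and 0.0456). Without the 2 libraries farthest from the Nlrc5 median, the ranges of r were 0.88 to 0.989, 0.814 to 0.955 and 0.473 to 0.842 in these groups.

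AB1 responders were the exception. Their r with Nlrc5 ran from 0.694 to 0.927, and 5 of 7 passed, but rho ran from -0.168 to 0.35 and 0 of 7 passed by rank (highest adjusted permutation p 0.918). Without responders 1 and 12 all 7 values of r were negative, from -0.698 to -0.164, so the relation in AB1 responders rested on those libraries. Nlrc5 itself varied little among the other 10, from 481.4 to 552.1 CPM. As deviations from flow cell means, r of Nlrc5 ran from 0.897 to 0.994 in AB1 non-responders, 0.758 to 0.942 in AB1 responders, 0.842 to 0.977 in Renca non-responders and 0.581 to 0.845 in Renca responders, where B2m no longer passed (adjusted permutation p = 0.0544).

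**Figure D4:**
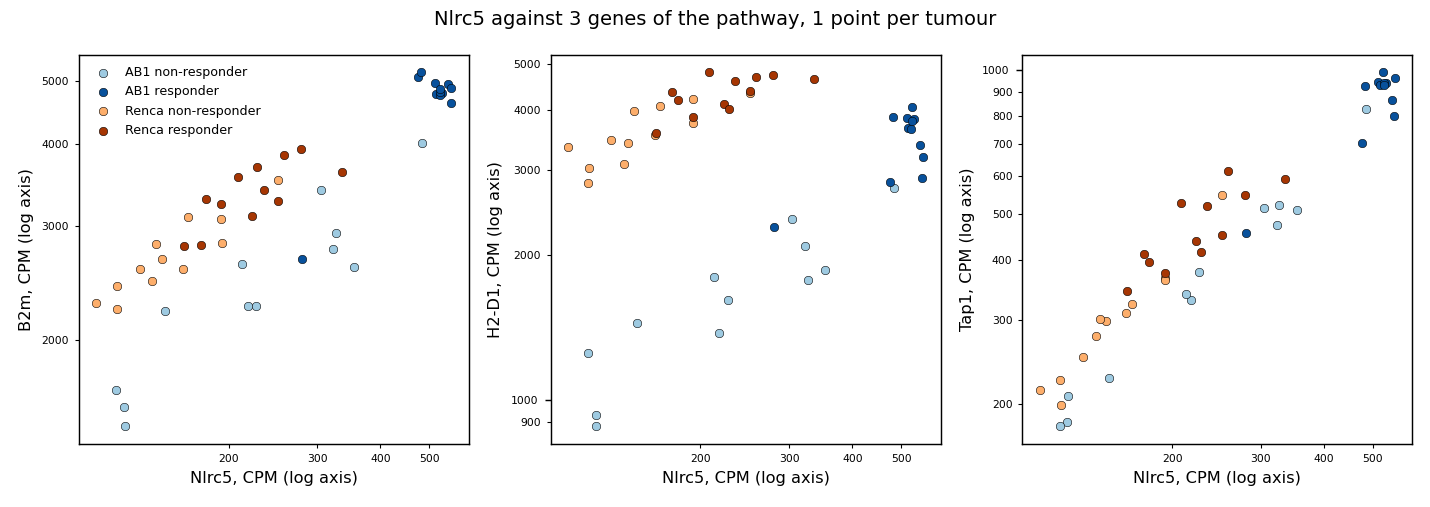
B2m, H2-D1 and Tap1 against Nlrc5, in CPM on logarithmic axes, with 1 point per tumour. At a given Nlrc5 level Renca tumours hold more H2-D1 than AB1 tumours, and AB1 responder 12 (Nlrc5 279.7 CPM) lies far from the other 11 AB1 responders.

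The 8 genes also varied with Ptprc, the pan-leukocyte gene. The share of all genes that would pass with Ptprc was not counted, so these counts too are not shown to be particular to the 8. In AB1 non-responders r ran from 0.803 to 0.964 (8 of 8 passed, rho 0.706 to 0.916, highest adjusted permutation p 0.0036 and 0.0208). In Renca non-responders r ran from 0.561 (H2-D1) to 0.905 (Tapbpl) and 7 of 8 passed (rho 0.601 to 0.881). In Renca responders it ran from 0.423 (H2-D1) to 0.921 (Nlrc5) and 5 of 8 passed (rho 0.441 to 0.923), while H2-K1 stood at 0.477 (adjusted permutation p = 0.117). In AB1 responders 3 of 8 passed by r (0.627 to 0.809) and 1 of 8 by rank (rho -0.077 to 0.769), and without responders 2 and 12 r ran from -0.765 to 0.388, so that this relation too rested on those libraries. Without the 2 libraries farthest from the Ptprc median, r ran from 0.744 to 0.924 in AB1 non-responders, 0.398 to 0.83 in Renca non-responders and 0.18 to 0.824 in Renca responders. As deviations from flow cell means, 8, 5, 8 and 3 of 8 passed in AB1 non-responders, AB1 responders, Renca non-responders and Renca responders.

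Immunoproteasome and class I genes were among those whose pattern was most like that of the 8. Among 10967 candidates with a mean of at least 1 on the log2 CPM scale, high correlations with the mean of the 8, after subtracting group means over 48 libraries, belonged to Psmb9 (0.990) and Psmb8 (0.987), catalytic immunoproteasome subunits, to the class I-like genes H2-T23 (0.990) and H2-M3 (0.985) and to Zbp1, a sensor of Z-form nucleic acids (0.967). In single groups these 5 ran from 0.929 to 0.994. The AB1 responder values include responder 12, the lowest responder in all 8 genes, and were not computed without it. Some 50-base windows of Tap1 also occur in Psmb9, and some of H2-K1 and H2-D1 in H2-T23. The 48 libraries share the scaling and the mixture of cells, and the values describe likeness alone.

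Upstream of loading, the genes that supply and fold moved unequally. Of 18 other peptide supply and loading genes in the table, edgeR called 7 higher and 3 lower in AB1 responders, with a median of 0.04. Over all genes tested in AB1, 29.6% passed as higher and 30.1% as lower, with a median of -0.02. As a list, these genes thus lay close to all genes. The higher ones were the immunoproteasome subunits Psmb8 (1.15), Psmb9 (1.20) and Psmb10 (1.01), the proteasome activator subunits Psme1 (0.94) and Psme2 (0.85), the aminopeptidase Lap3 (0.76) and the glycoprotein folding sensor Uggt1 (0.34). Lower were the peptidase Thop1 (-0.49), the translocon subunit Sec61a1 (-0.30) and the chaperone Canx (-0.15). The loading complex chaperones Calr (0.11, edgeR adjusted p = 0.168) and Pdia3 (0.05, 0.473) did not pass. In Renca 6 of 18 passed as higher, namely Lap3 (0.31), Psmb8 (0.50), Psme2 (0.37), Psmb9 (0.56), Psme1 (0.40) and Psmb10 (0.58), and Uggt1 passed as lower (-0.10). The Renca median was 0.02, where 11.6% of all genes tested passed as higher and 8.01% as lower, with a median of -0.01.

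Of 16 genes for class I transcription and interferon input, 11 passed as higher in AB1 responders and 0 as lower, with a median of 0.39. Among all genes tested, 29.6% passed as higher in AB1 and 11.6% in Renca. Irf2 (1.09), Jak1 (0.38) and Ifngr1 (0.81) had the smallest p. The interferon-responsive factor Irf1 rose by 1.40 and Rfx5, a subunit of the complex that Nlrc5 works with, by 0.55. In Renca 6 of 16 passed, all higher (median 0.09), with Ifngr2 at 0.25 and Jak1 at 0.12 among them. Rfx5 there stood at 0.06 (edgeR adjusted p = 0.275).

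Non-classical class I and class I-like genes were higher as well. The share of all genes tested that passed as higher was 29.6% in AB1 and 11.6% in Renca. In AB1 17 of 18 passed as higher, with a median of 1.09, and H2-Q2 (1.09), H2-Q7 (1.37) and H2-Q10 (1.16) had the smallest p. Mr1, which presents vitamin metabolites, stood at -0.05 (edgeR adjusted p = 0.57). In Renca 14 of 18 passed as higher, with a median of 0.35, and H2-M3 (0.32), H2-T22 (0.43) and H2-T10 (0.43) had the smallest p. Reads of the H2-Q and H2-T genes can also match H2-D1 and H2-K1, so their values are not independent of the heavy chain counts.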

How the data were processed

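RNA was sequenced from 48 tumours, 12 in each of 4 groups taken from the sample labels. The authors deposited 1 table of counts, which are whole and unscaled, with 39637 mouse identifiers, of which 39461 are in GENCODE M21. The submitters' processing notes list StringTie 1.3.0, HISAT2 2.0.4 and bcl2fastq 2.18.0.12, and builds GRCh37 and hg19, which are human. The counting tool, the annotation and whether strand was used are not given in the sources, and reads that fit several genes could have been divided among them.

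Members and gene lists were chosen with earlier results of these data known. Counts were tested with edgeR 4.0.16 in R 4.3.3 (TMM scaling, filterByExpr, quasi-likelihood F test, Benjamini-Hochberg over all genes tested, threshold 0.05). Each tumour was fitted alone with flow cell as a term, the difference of effects over 48 libraries with 4 flow cell levels, and AB1 against Renca with response as a term. The standard error is the log2 fold change divided by the square root of F. Correlations and ratios used log2 CPM (prior count 2) or counts, with permutation tests of 100000 resamples (smallest p 1e-05) in Python 3.11.15 with scipy 1.17.1. The fits were tested on simulated counts. No 2 libraries held identical counts. Labels give each sample its own number and no mouse identifier, so p-values measure the spread between these tumours.

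All members were named in every comparison. From each list, in each responder comparison, the text names the 3 genes of smallest p and every passing gene opposite to the list's majority, and other genes were added after their values were seen. A few of the genes taken by these rules are not reported here, though totals over a list count them. Alternatives were DESeq2 1.42.0, RLE scaling, no filter, no flow cell term, a replicate block, RNA purity covariates, single flow cells, 1 fit over 48 libraries and leaving out each library. Leaving out the libraries that stood apart was added after seeing the data, and it takes out the lowest AB1 responder and the highest AB1 non-responder.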

Additional observations from a re-analysis of the deposited data

Results flagged for a closer look

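For 6 genes the response effect differed between AB1 and Renca by the edgeR interaction test with Benjamini-Hochberg adjustment over 16509 genes. The AB1 effect minus the Renca effect, on the log2 scale, was 0.77 for H2-D1, 0.70 for H2-K1, 0.69 for Tapbp, 0.61 for B2m, 0.56 for Tapbpl and 0.54 for Tap2. In the same test 45.1% of all genes passed. AB1 and Renca tumours were sequenced on different flow cells and removed on different days, which cannot be told apart from the tumour line.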

How the results depend on the processing

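In AB1 all 8 genes passed as higher in every fit run, including the replicate block (8973 genes called in all) and each of 24 fits that left out 1 library (8987 to 9764 genes called), and the number of all genes called moved beyond 1.5 times the main count only in the first flow cell alone (5816). In Renca 8 of 8 passed with DESeq2, RLE scaling, no filter, no flow cell term, the replicate block (2746 genes called in all) and each of 24 fits without 1 library (2393 to 3847 genes called). There 0 members passed with RNA purity covariates (224 genes called in all) and 0 in the first flow cell alone (0 genes in all), 2 (Tap1 and Tapbpl) in 1 fit over 48 libraries (820 genes in all), and 7 in the second flow cell (1253 genes in all). The causes were not tested, although single flow cells hold fewer samples. For the difference of effects, edgeR called 8 members with the replicate block (7347 genes called in all), 8 with RNA purity covariates (7060), 8 without the 3 AB1 libraries (8768), 4 with no filter (6908 of 31171) and 4 without Renca non-responder 3 (7158), against 6 and 7441. Other than Tap1 (0.62, edgeR adjusted p = 0.014) and Nlrc5 (0.59, 0.0222) in that comparison, the block changed no member's call. No label says what a number stands for: each same-numbered pair shared a lane, but 4 numbers shared 1 lane in each tumour. Deviations from group means correlated at -0.114 to 0.607 in AB1 pairs and -0.182 to 0.357 in Renca pairs. The highest AB1 values were those of numbers 12 (0.607), 3 (0.386) and 7 (0.322), which include the libraries that stood apart. In all, 5 of 24 AB1 and 2 of 24 Renca libraries correlated best with their own number. The main fits did not treat the numbers as pairs, although each pair shared a lane. In AB1 the block gave smaller standard errors, 0.16 against 0.22 in the main fit for Tap1 and 0.12 against 0.15 for B2m. The reason was not tested. Between tumours, B2m turned from 0.17 to -0.14 among non-responders alone and was 0.47 among responders alone. Responder ratios that passed numbered 8 under both alternatives, and 51 (flow cell deviations) and 48 (totals without TMM) of 60 relations passed, against 49. Depth limits none of the 8 genes, since even Tapbpl stood at 35.65 CPM or more in each library.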
